A study of Homo sapiens with 3 samples.

Results

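The genes described are 31 genes of cholesterol synthesis, uptake, transport, esterification and efflux, listed by symbol for their known roles, with earlier results of these data known, in Caco-2, an established line from a human colon tumour often used to model intestinal epithelium. They comprise 7 enzymes of the mevalonate pathway, 11 enzymes that make squalene and turn it into cholesterol, 4 genes of SREBP2 control, 4 of uptake and transport, 2 of esterification and 3 driven by the liver X receptors (LXR). All 31 were found among the 60664 gene identifiers of the count table. A gene was called measured when it reached a CPM of 1 (counts per 1000000 of the scaled library total) in at least 1 library, which 14792 genes did. Of the 31 genes, 30 were measured, the exception being ABCG1.

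RNA was sequenced from 3 samples of Caco-2 cells labelled as wild type, 1 library each. The control cells were left untreated. The DSS cells received 3% dextran sulfate sodium, a sulfated polysaccharide used to provoke colitis in rodents, for 8 h. The DSS+polydatin cells received 30 µM polydatin, a glucoside of resveratrol, for 2 h beforehand and then together with the same DSS exposure. By its title the study concerns protection by polydatin against DSS injury. Cells given polydatin alone were not analysed here, and with a single library per group every ratio compares libraries and lacks a replicate check.

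Cells make cholesterol from acetyl-CoA through mevalonate, the isoprenoids, squalene and lanosterol. When sterol in the endoplasmic reticulum is scarce, SCAP carries the membrane-bound transcription factor SREBP2 to the Golgi, where it is cut and released to switch on these enzymes, and when sterol is plentiful the INSIG proteins hold SCAP back. Surplus sterol is oxidised to ligands of LXR, which switches on export genes such as ABCA1 and ABCG1, while in the intestine NPC1L1 takes up cholesterol from the lumen and SOAT2 esterifies it.

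Ratios between libraries were formed from scaled counts and carry exact 95% Clopper-Pearson intervals. These describe counting error alone, because each group has 1 library. Reads without recorded molecular identifiers are not independent molecules, so the intervals may understate even that error. A gene was counted as higher or lower in a comparison when it differed at least 1.5-fold and its interval excluded 1. By this rule 18 of the 30 measured members (60.0%) were higher in DSS than in control, against 9.45% of all measured genes, and 2 (6.67%) were lower, against 5.81%. Between DSS+polydatin and DSS no member was counted in either direction, where 5.39% of all measured genes were higher and 2.60% lower. Between DSS+polydatin and control 16 members (53.3%) were higher and 1 (3.33%) was lower, where 16.0% of all genes were higher and 12.4% lower. The median log2 ratio of the members was 0.67 for DSS against control, 0.06 for DSS+polydatin against DSS and 0.66 for DSS+polydatin against control, beside medians of −0.01, −0.01 and −0.02 over all measured genes. The comparisons share libraries, since DSS enters the first 2 and control the first and the last, so their values are set side by side and are not independent.

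**Figure D1:**
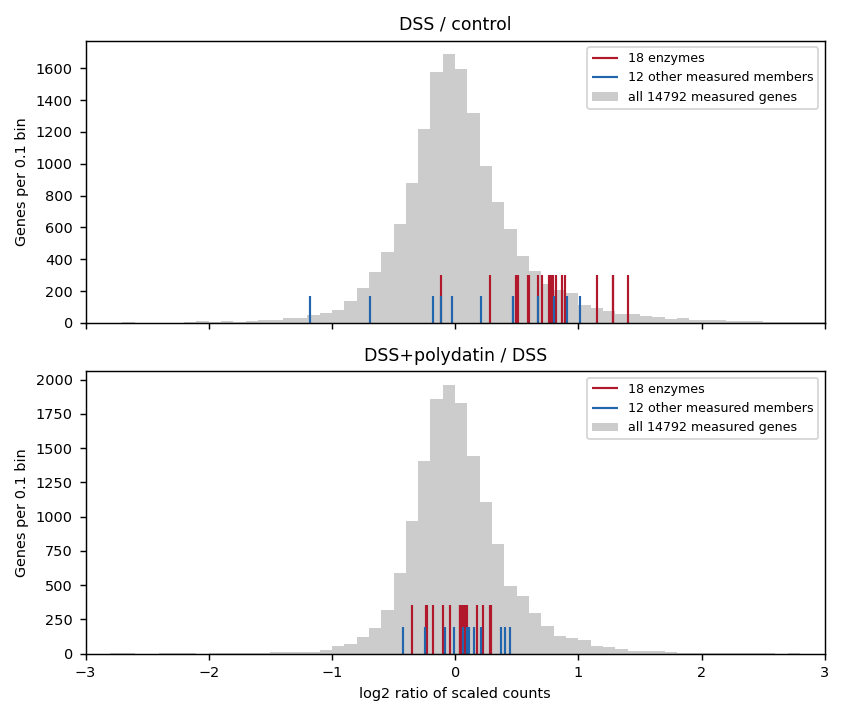
Histograms of the log2 ratio of scaled counts for all 14792 measured genes (grey, genes per 0.1 bin) with the 18 enzymes (tall red ticks) and the 12 other measured members (short blue ticks), for DSS over control (top) and DSS+polydatin over DSS (bottom). In the top panel 17 enzymes lie above 0, and in the bottom panel all members lie between −0.42 and 0.45.

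Protein-coding genes with at least 10 CPM in at least 1 library make a stricter background, and 27 of the members reach that level. Of 9617 such genes 7.42% were higher and 4.26% lower in DSS than in control, and 2.28% were higher and 2.20% lower in DSS+polydatin than in DSS. The calls made with polydatin depend on how the libraries are scaled. With plain library totals in place of TMM (trimmed mean of M values) factors, the median of all genes for DSS+polydatin against control went from −0.02 to 0.09, the counts over all genes from 2367 higher and 1829 lower to 2957 and 1238, and the members higher from 16 to 21. For DSS+polydatin against DSS the same change took all genes from 797 higher and 384 lower to 1132 and 234, and left the members at 0 in both directions.

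The 4 promoters that follow belong to the members at the ends of the response. LSS and MVD are the enzymes whose DSS to control ratios had the highest lower bounds, INSIG1 was the control gene with the largest ratio, and ABCA1 had the lowest ratio. They are RefSeq sequences (GRCh38.p14) from the 250 bases before the RefSeq start, 5′ to 3′ on the gene's strand, without the bases that GENCODE places inside the gene. Capitals mark the CCAAT box, bound by NF-Y and written ATTGG where it lies on the other strand, and in ABCA1 the E-box CACGTG. The positions are chr21:46228825-46229024 (minus strand) for LSS, chr16:88663162-88663341 (minus) for MVD, chr7:155297628-155297775 (plus) for INSIG1 and chr9:104928238-104928405 (minus) for ABCA1. The MVD stretch crosses an exon of the antisense gene SNAI3-AS1, and the window of TM7SF2, the enzyme next in rank, lies in the untranslated end of its neighbour VPS51 and is not shown.
LSS: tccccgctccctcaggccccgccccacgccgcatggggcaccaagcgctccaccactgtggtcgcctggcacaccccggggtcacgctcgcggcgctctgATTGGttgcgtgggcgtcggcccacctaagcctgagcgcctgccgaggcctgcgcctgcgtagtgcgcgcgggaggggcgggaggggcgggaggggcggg
MVD: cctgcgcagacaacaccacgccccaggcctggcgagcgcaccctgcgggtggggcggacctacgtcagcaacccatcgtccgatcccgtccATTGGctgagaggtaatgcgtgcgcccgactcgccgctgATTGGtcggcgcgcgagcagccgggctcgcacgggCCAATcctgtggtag
INSIG1: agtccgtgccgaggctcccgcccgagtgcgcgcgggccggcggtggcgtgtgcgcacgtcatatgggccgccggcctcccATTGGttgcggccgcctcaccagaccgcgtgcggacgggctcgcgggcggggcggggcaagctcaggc
ABCA1: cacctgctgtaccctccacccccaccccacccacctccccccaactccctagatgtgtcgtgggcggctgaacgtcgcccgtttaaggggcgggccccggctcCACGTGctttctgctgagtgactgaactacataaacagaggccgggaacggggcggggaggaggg

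SREBP2 binds the sterol regulatory element (SRE), usually next to NF-Y at a CCAAT box or Sp1 at a GC box. A promoter was found for 26 of the 31 members, 15 of them enzymes, and both strands were searched. A CCAAT box stood in 12 of the 15 enzyme promoters and in 7 of the 11 others (63.6%), against 35.6% of 9993 promoters of measured protein-coding genes and 33.0% of all 27305 promoters. MVK and NSDHL had 5 each and MSMO1 had 4, while CYP51A1, IDI1 and PMVK had none among the enzymes. Members with and without the box lay on both sides of a DSS to control ratio of 1. MVD (log2 1.29) and NPC1L1 (−0.69) had it, and CYP51A1 (1.15) and ABCA1 (−1.18) did not. The GC box GGGCGG stood in 93.3% of enzyme promoters and 90.9% of the others, against 67.8% of the measured protein-coding genes and 42.3% of all promoters. An E-box CACGTG was found in SC5D (6.67% of enzymes) and in INSIG1, SCAP and ABCA1 (27.3% of the others), against 8.72% of measured protein-coding genes and 6.49% of all promoters. Matches of different motifs never overlapped in the member promoters, and 3 pairs of the same motif did, in INSIG1, NPC2 and NSDHL. A fixed letter pattern for the DR4 element of LXR matched no member promoter and 0.110% of the measured protein-coding promoters (0.172% of all). Elements whose letters depart from that pattern would have been missed, so an LXR element in these promoters is not excluded.

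The classical SRE core TCACNCCA matched 3 member promoters, those of MSMO1, MVK and SREBF2. That is 13.3% of the enzymes and 9.09% of the others, against 2.73% of measured protein-coding genes and 3.18% of all promoters. Each of these 3 promoters also held a CCAAT box, a combination present in 11.5% of member promoters and in 1.10% of those of measured protein-coding genes. The 30 bases around each match are given, with the core in capitals, having been picked because they matched. They lie at chr4:165327502-165327531 for MSMO1, chr12:109573588-109573617 for MVK and chr22:41832961-41832990 for SREBF2, all on the plus strand, and the core begins 156, 195 and 133 bases before the RefSeq start. As GENCODE places them, the MVK stretch lies inside both MVK and MMAB.
MSMO1: tctcactatccTCACTCCAtccgcggagcc
MVK: gttcgcagttcTCACCCCAgggcgggacac
SREBF2: atgacgcgccaTCACCCCAcgcaccgcttc
The matches describe letters in this window only, and nothing about binding was measured. Promoters with and without the core were found at both sizes of ratio: LSS, without it, had the largest DSS ratio of all members, and SREBF2, with it, was below 1.5-fold.

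**Figure D2:**
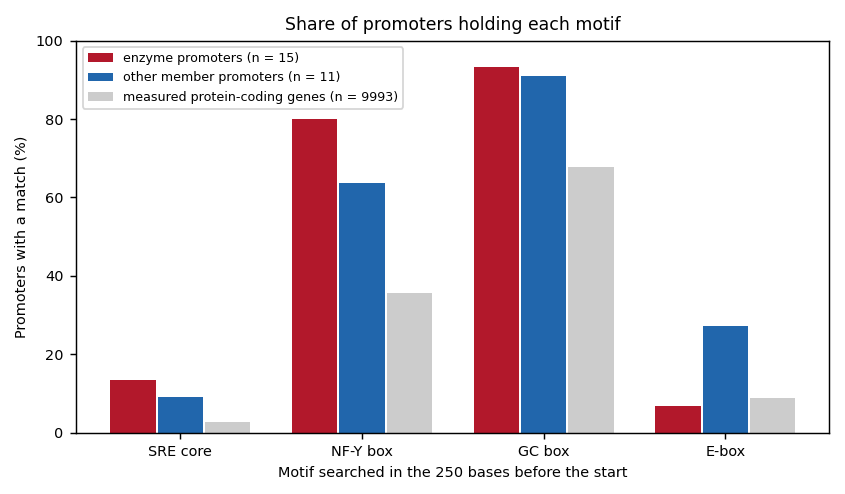
Percent of promoters (250 bases before the RefSeq start, both strands) that hold each motif, for the 15 enzyme promoters, the 11 other member promoters and 9993 promoters of measured protein-coding genes. The CCAAT box bound by NF-Y is in 12 of 15 enzyme promoters, 63.6% of other members and 35.6% of the background.

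The mevalonate enzymes were higher in DSS for 5 of 7 and none was lower, where 9.45% of all measured genes were higher and 5.81% lower. Their median log2 ratio was 0.71. Their summed level was 1143 CPM in control, 1696 in DSS and 1759 in DSS+polydatin. MVD (chromosome 16, 88651935 to 88663161, minus strand, GRCh38), the decarboxylase that makes isopentenyl diphosphate, had 672, 1671 and 1911 counts, in the order control, DSS, DSS+polydatin that is used throughout, or 37.0, 90.2 and 110 CPM. The control library was the lowest and the polydatin library the highest. MVD was 2.44-fold higher in DSS than in control (2.23 to 2.67), 1.22-fold above DSS with polydatin (1.14 to 1.30) and 2.96-fold above control (2.71 to 3.24), the largest ratios of the 7.

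ACAT2, the cytosolic thiolase that joins acetyl-CoA units at the start of the pathway, had 118, 202 and 171 CPM and was 1.71-fold higher in DSS (1.62 to 1.81). With polydatin it stood at 0.848 times DSS (0.808 to 0.890), below the DSS library but above control. Its exons overlap those of TCP1 and SOD2 on the opposite strand by 397 and 1141 bases, and as the strand setting of the counting is unknown their reads cannot be told apart. FDPS, which builds farnesyl diphosphate, had 281, 478 and 492 CPM and was 1.70-fold higher in DSS (1.64 to 1.76), with 693 exonic bases opposite the antisense gene RUSC1-AS1 (53, 75 and 116 counts). IDI1, the isomerase before it, had 206, 311 and 352 CPM and was 1.51-fold higher (1.45 to 1.58), just past the threshold. MVK, mevalonate kinase, had 18.1, 29.5 and 30.8 CPM and was 1.63-fold higher (1.42 to 1.88), with 306 bases of exon shared with MMAB on the other strand.

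HMGCS1 and PMVK were the mevalonate enzymes not counted as higher. HMGCS1, the synthase that commits acetyl units to the pathway, had 472, 575 and 596 CPM, a ratio of 1.219 (1.185 to 1.255) in DSS against control. PMVK, phosphomevalonate kinase, was the only enzyme of the 18 below control in DSS, with 204, 192 and 142 counts and a ratio of 0.922 whose interval holds 1 (0.753 to 1.13). In DSS+polydatin it was at 0.786 times DSS (0.628 to 0.981) and 0.725 times control (0.581 to 0.902). The neighbouring steps, MVK before it and MVD after it, thus had ratios on the other side of 1.

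**Figure D3:**
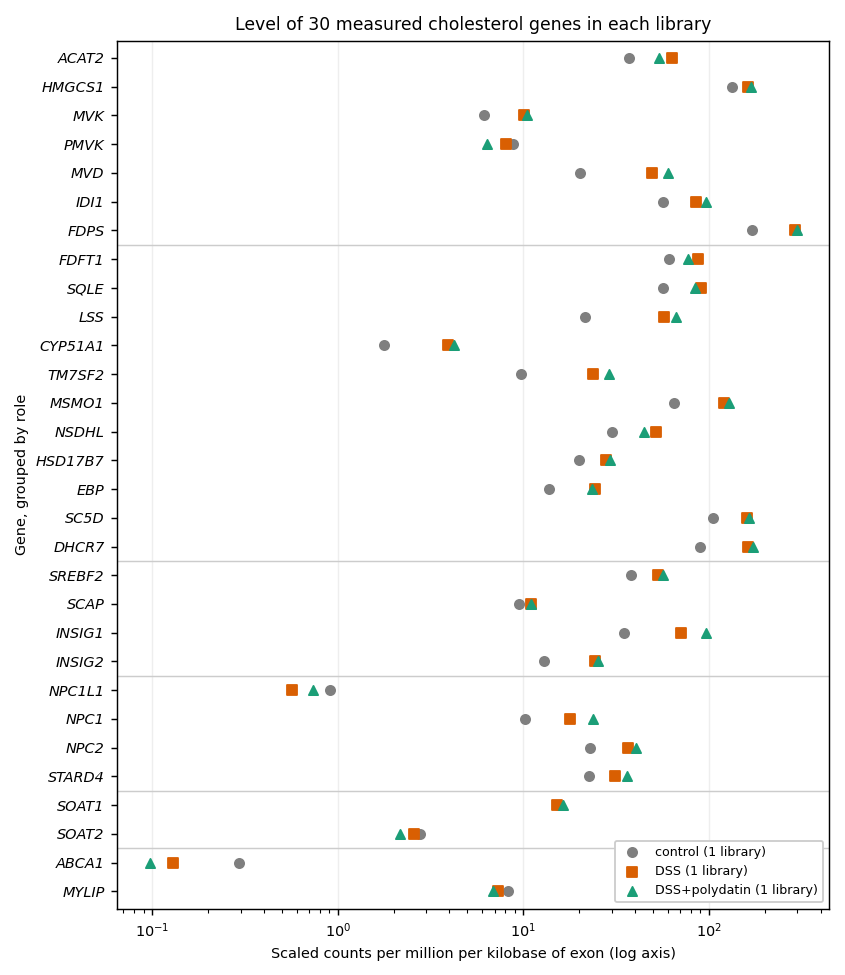
Level of each of the 30 measured members in the control, DSS and DSS+polydatin libraries, as CPM per kilobase of exon on a log axis, 1 point per library, with lines between role groups. FDPS is the highest in every library and ABCA1 the lowest. For most enzymes the control point lies left of the other 2.

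The squalene and sterol enzymes were higher in DSS for 9 of 11 and none was lower, where 9.45% of all measured genes were higher and 5.81% lower. Their median log2 ratio was 0.82, and all 11 intervals lay above 1. Their summed level was 1388, 2387 and 2422 CPM, so the DSS and polydatin sums were close to each other and both above control. LSS (chromosome 21, 46188141 to 46228824, minus strand), which folds oxidosqualene into lanosterol, had 2096, 5669 and 6243 counts, or 115, 306 and 358 CPM. It was 2.65-fold higher in DSS than in control (2.52 to 2.79), 1.17 times DSS with polydatin (1.13 to 1.21) and 3.10-fold above control (2.95 to 3.26). TM7SF2 (chromosome 11, 65111845 to 65116384, plus strand), a sterol reductase that acts after lanosterol demethylation, had 305, 756 and 870 counts, or 16.8, 40.8 and 49.9 CPM. The ratios were 2.43 (2.12 to 2.78), 1.22 (1.11 to 1.35) and 2.97 (2.60 to 3.40). For both genes, as for MVD, control was the lowest library and DSS+polydatin the highest.

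CYP51A1, the demethylase between these enzymes, had only 108, 245 and 247 counts, or 5.95, 13.2 and 14.2 CPM, and was 2.22-fold higher in DSS (1.77 to 2.81). Its low level is uncertain, because 2844 of its 3584 exonic bases are also annotated to the same-strand gene AC000120.2, which is listed at 0 counts in all 3 libraries, and because reads may be shared with pseudogenes. CYP51A1P1 had 33, 49 and 40 counts and CYP51A1P2 had 17, 53 and 49. Reads that fit more than 1 of these genes could have been dropped, and how the counting treated them was not stated.

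Of the other 8 enzymes of this group, 6 were higher in DSS. MSMO1, a sterol methyl oxidase, had 165, 307 and 326 CPM and was 1.86-fold higher in DSS (1.78 to 1.94). DHCR7, the final reductase of one route to cholesterol, had 239, 436 and 459 CPM and was 1.82-fold higher (1.76 to 1.89). EBP, the sterol isomerase, had 24.3, 43.0 and 41.7 CPM and was 1.77-fold higher (1.57 to 1.99). NSDHL, a dehydrogenase of the demethylation complex, had 60.0, 104 and 88.7 CPM and was 1.73-fold higher (1.61 to 1.87). With polydatin EBP stayed within counting error of DSS at 0.970 times (0.876 to 1.07), while NSDHL was at 0.853 times (0.797 to 0.912).

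SQLE, squalene epoxidase, had 169, 269 and 251 CPM and was 1.59-fold higher in DSS (1.52 to 1.66). SC5D, the desaturase, had 284, 428 and 439 CPM and was 1.51-fold higher (1.46 to 1.56). Below the threshold lay FDFT1, squalene synthase, at 281, 401 and 353 CPM and a ratio of 1.43 (1.38 to 1.48), and HSD17B7, a ketoreductase, at 27.9, 39.3 and 41.2 CPM and a ratio of 1.41 (1.26 to 1.58). HSD17B7 has a pseudogene, HSD17B7P2, with 85, 141 and 205 counts of its own, so its split of reads is uncertain. FDFT1 was at 0.881 times DSS with polydatin (0.851 to 0.911) and SQLE at 0.935 times (0.898 to 0.974), both intervals below 1 under TMM scaling. With library totals their log2 ratios were −0.10 and −0.01.

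Summed over the 18 enzymes, expression was 2532 CPM, 4083 CPM and 4181 CPM in the 3 libraries. The DSS sum was 1.61 times control (1.59 to 1.63), and the polydatin sum was 1.02 times DSS (1.01 to 1.03). Against control, 14 of the 18 were higher in DSS and 11 in DSS+polydatin, where 9.45% and 16.0% of all measured genes were. None of the 18 was lower, where 5.81% and 12.4% of all measured genes were. The median log2 ratio of the 18 was 0.77 in both comparisons. These genes took 0.246%, 0.402% and 0.437% of each library's unscaled total. By these shares DSS+polydatin stood further above DSS than the interval of the scaled sums allows, since that interval leaves out the choice of scaling. In a bulk sample fewer cells of a kind and less RNA per cell cannot be told apart, and the same holds for a rise.

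**Figure D4:**
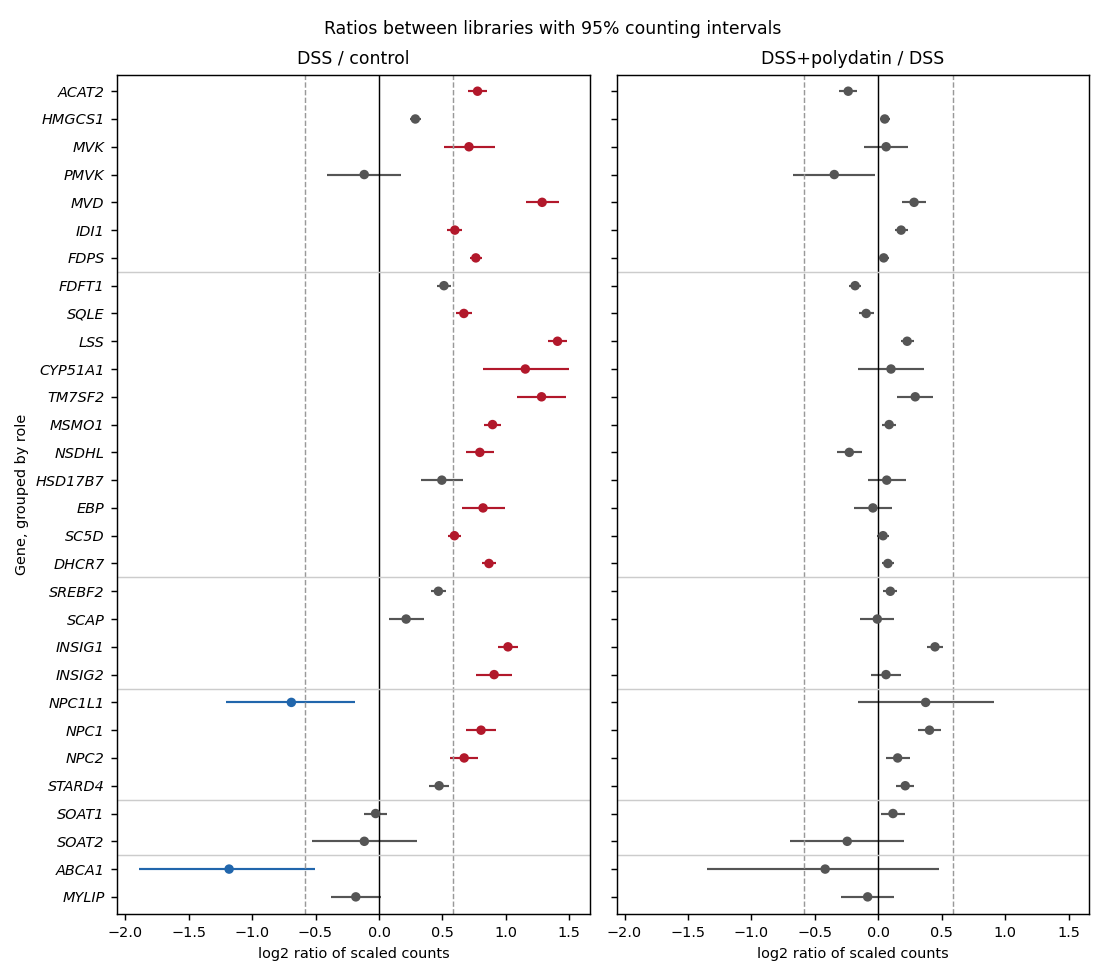
Log2 ratio of scaled counts for each measured member, DSS over control (left) and DSS+polydatin over DSS (right), with 95% counting intervals, 1 library per group. Red marks members at least 1.5-fold higher and blue those at least 1.5-fold lower with an interval excluding 1, dashed lines mark 1.5-fold. The left panel has 18 red and 2 blue members, the right panel none.

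Levels between genes were compared per kilobase of exon. In control FDPS was the most abundant member at 171 CPM per kb, followed by HMGCS1 at 134, SC5D at 106 and DHCR7 at 89.6. At the low end of the enzymes were TM7SF2 at 9.75 CPM per kb, PMVK at 8.78, MVK at 6.14 and CYP51A1 at 1.78. In DSS FDPS was at 290 CPM per kb, DHCR7 and HMGCS1 were level at 163 and SC5D was at 160. The most abundant enzymes were therefore not those with the largest ratios, which were LSS (21.5 CPM per kb in control), MVD (20.3) and TM7SF2.

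Of the SREBP2 control genes, both INSIG genes were higher in DSS and neither SREBF2 nor SCAP passed 1.5-fold. INSIG1 (chromosome 7, 155297776 to 155310235, plus strand), itself a target of SREBP2 whose protein retains SCAP, had 1952, 4028 and 5164 counts, or 107, 217 and 296 CPM. It was 2.02-fold higher in DSS than in control (1.92 to 2.14). With polydatin it was 1.36 times DSS (1.31 to 1.42), the largest such ratio of the 30 members, and 2.75-fold above control (2.61 to 2.90). INSIG2, its paralogue, had 33.6, 63.1 and 65.8 CPM and was 1.88-fold higher in DSS (1.70 to 2.07). With polydatin INSIG2 was at 1.04 times DSS, an interval that holds 1 (0.960 to 1.13).

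SREBF2, which encodes SREBP2, had 205, 284 and 303 CPM, a ratio of 1.38 (1.33 to 1.44) in DSS and 1.48 (1.42 to 1.54) in DSS+polydatin against control. SCAP, the escort protein, had 43.3, 50.2 and 49.9 CPM, with a ratio of 1.16 (1.05 to 1.28) in DSS. Transcript levels do not show how much SREBP2 was cut and active.

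Among the uptake and transport genes, the lysosomal pair was higher in DSS and the intestinal importer was lower. NPC1, the membrane protein that passes cholesterol out of the lysosome, had 961, 1712 and 2130 counts, or 52.9, 92.4 and 122 CPM. It was 1.75-fold higher in DSS (1.61 to 1.89), 1.32 times DSS with polydatin (1.24 to 1.41) and 2.31-fold above control (2.14 to 2.49). NPC2, which hands cholesterol to NPC1 inside the lysosome, had 58.8, 93.6 and 104 CPM and was 1.59-fold higher in DSS (1.47 to 1.72). NPC1 shares 604 exonic bases with RMC1, and NPC2 shares 103 with ISCA2, each on the opposite strand.

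STARD4, a cytosolic sterol carrier, had 125, 173 and 201 CPM. Its ratio was 1.39 (1.32 to 1.47) in DSS, and with polydatin it was 1.61-fold above control (1.52 to 1.70), which counts as higher. NPC1L1 (chromosome 7, 44512535 to 44541315, minus strand), the importer of dietary cholesterol and the target of ezetimibe, had 87, 55 and 67 counts, or 4.79, 2.97 and 3.84 CPM. It was at 0.620 times control in DSS (0.434 to 0.878). The DSS+polydatin library lay between the others, and its intervals against DSS (0.893 to 1.88) and against control (0.574 to 1.12) both hold 1.

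The esterification genes passed the threshold in no comparison. SOAT1, the widely expressed enzyme that makes cholesteryl esters, had 107, 105 and 113 CPM and was at 0.982 times control in DSS (0.921 to 1.05). SOAT2, the intestinal and hepatic form, had 103, 97 and 77 counts, or 5.67, 5.24 and 4.42 CPM, and all of its intervals hold 1. Per kilobase SOAT1 was above SOAT2 in control, at 15.4 against 2.78 CPM per kb. At the depth of SOAT2, a ratio in DSS anywhere from 0.692 to 1.23 was within counting error.

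Of the LXR-driven genes, ABCA1 was lower in DSS, ABCG1 was barely detected and MYLIP did not pass the threshold. ABCA1 (chromosome 9, 104781002 to 104928237, minus strand), which loads cholesterol onto apolipoprotein A-I, had 60, 27 and 19 counts, or 3.30, 1.46 and 1.09 CPM. It was at 0.441 times control in DSS (0.269 to 0.706) and 0.330 times in DSS+polydatin (0.186 to 0.560), and the DSS+polydatin and DSS counts were not distinguishable at this depth (0.748, 0.393 to 1.40). ABCG1, the exporter to mature lipoprotein particles, had 0, 2 and 4 counts, and as 3 counts equal 0.165, 0.162 and 0.172 CPM no fold is given. MYLIP, a ubiquitin ligase that marks lipoprotein receptors for degradation, had 25.1, 22.1 and 20.8 CPM, with a ratio of 0.881 in DSS (0.769 to 1.01) and 0.831 in DSS+polydatin against control (0.722 to 0.956).

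Set in order of CPM, 18 of the 30 members were highest in DSS+polydatin and lowest in control, and 6 were highest in DSS and lowest in control: ACAT2, FDFT1, SQLE, NSDHL, EBP and SCAP. PMVK, SOAT2, ABCA1 and MYLIP ran the other way, from control down through DSS to DSS+polydatin. SOAT1 and NPC1L1 were both lowest in DSS. Counting error alone is enough to set part of this order: of the 30 DSS+polydatin to DSS intervals, 13 lay above 1, 5 below and 12 held 1. With library totals in place of TMM, 23 members were above DSS in place of 20, since EBP (log2 0.04), SCAP (0.08) and MYLIP (0.00) changed side. Across the enzymes alone, 7 intervals lay above 1 and 5 below. Those below 1 were PMVK, ACAT2, NSDHL, FDFT1 and SQLE, and the highest were TM7SF2, MVD, LSS and IDI1. These interval positions are for TMM scaling. With library totals the 5 enzymes were nearer to DSS, at log2 −0.26, −0.15, −0.14, −0.10 and −0.01 in the order named, and intervals for that scaling are not given.

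Genes linked to the same pathway were set beside the members from lists chosen by function. Of 8 other SREBP-responsive genes 3 were higher in DSS and none was lower, where 9.45% and 5.81% of all measured genes were. All 8 intervals lay above 1 and the median log2 ratio was 0.45. ACSS2, which makes acetyl-CoA from acetate, had 123, 324 and 403 CPM and was 2.64-fold higher in DSS (2.51 to 2.77), close to LSS. PCYT2, of phosphatidylethanolamine synthesis, was 1.66-fold higher (1.55 to 1.77) but not with the trend on GC content and length removed (log2 0.41), and LPIN1, a phosphatidate phosphatase, 1.61-fold higher (1.47 to 1.76). As for the members, none of these 8 passed 1.5-fold between DSS+polydatin and DSS, where the median was 0.06. In that comparison 5.39% of all measured genes were higher and 2.60% lower, so none of 8 is near these shares.

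The machinery that cuts SREBP and degrades sterol-regulated proteins had none of 9 genes past the threshold in any comparison. Over all measured genes 9.45% were higher and 5.81% lower in DSS than in control, so none in so short a list is near these shares. They were 5.39% and 2.60% for DSS+polydatin against DSS, and 16.0% and 12.4% for DSS+polydatin against control. Of the 2 genes of this machinery with the highest summed CPM, MBTPS1, which encodes an SREBP protease, had a DSS to control ratio of 1.03 (0.983 to 1.08). SPRING1, which encodes a partner of that protease, had 115, 165 and 164 CPM and a ratio of 1.44 (1.36 to 1.52), short of the threshold. Under library-total scaling 1 of the 9 counted as higher in DSS+polydatin than in control. The 10 genes of the non-sterol branches, which prenylate proteins and make ubiquinone and dolichol from the same isoprenoids, had a median log2 ratio of −0.18 in DSS. None of the 10 passed the threshold in DSS in either direction, where 9.45% of all measured genes were higher and 5.81% lower. In DSS+polydatin against control 4 of the 10 were lower, where 12.4% of all measured genes were: PDSS1, of the ubiquinone side chain, at 0.502 times (0.412 to 0.608), FNTB, a farnesyltransferase subunit, at 0.626 times (0.491 to 0.795), COQ2 at 0.637 times (0.548 to 0.740) and TRIT1, a transfer RNA isopentenyltransferase, at 0.642 times (0.569 to 0.723). Library-total scaling left only PDSS1 of these 4 past the threshold (log2 −0.89), with FNTB at −0.57, COQ2 at −0.54 and TRIT1 at −0.53. PDSS1 was also lower than in DSS, at 0.591 times (0.483 to 0.721).

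Of 12 genes of sterol movement and lysosomal release, 2 were higher in DSS, 1 was lower and the median was 0.05. These counts are near the shares over all measured genes, 9.45% higher and 5.81% lower. NCEH1, a cholesteryl ester hydrolase, had 59.4, 135 and 177 CPM and was 2.28-fold higher (2.12 to 2.45). LIPA, the lysosomal acid lipase that frees cholesterol for NPC2 and NPC1, had 37.8, 71.2 and 78.1 CPM and was 1.88-fold higher (1.71 to 2.07). ARV1, a sterol transport protein of the endoplasmic reticulum, had 27.0, 17.7 and 12.4 CPM and was at 0.656 times control (0.569 to 0.756), a call that did not hold with the GC content and length trend taken out (log2 −0.43).

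The LXR receptors, their partners and other targets held 8 measured genes of 10, none past the threshold in DSS against control, with a median of 0.08. Over all measured genes 9.45% were higher and 5.81% lower in that comparison, so none of 8 is near these shares. With DESeq2 size factors 1 of the 8 counted as lower in DSS, and with the trend on GC content and length removed 1 counted as higher. In DSS+polydatin against control 2 of the 8 were higher, where 16.0% of all measured genes were. NR1H2, which encodes LXR beta, had 15.6, 22.8 and 23.6 CPM and was 1.51-fold higher in DSS+polydatin than in control (1.29 to 1.76), as was the phosphodiesterase-like gene SMPDL3A at 1.504-fold (1.37 to 1.65). Both calls sit at the threshold and are lost with DESeq2 size factors, at log2 0.56 each, and NR1H2 also with the trend on GC content and length removed (0.25). The sterol exporter genes ABCG5 and ABCG8 had 0 counts in every library. Of 5 oxysterol enzymes 2 were measured, and CYP27A1, a sterol hydroxylase, was 1.62-fold higher in DSS (1.22 to 2.15) on 83 and 137 counts, a call lost when that trend was removed (0.54).

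**Figure D5:**
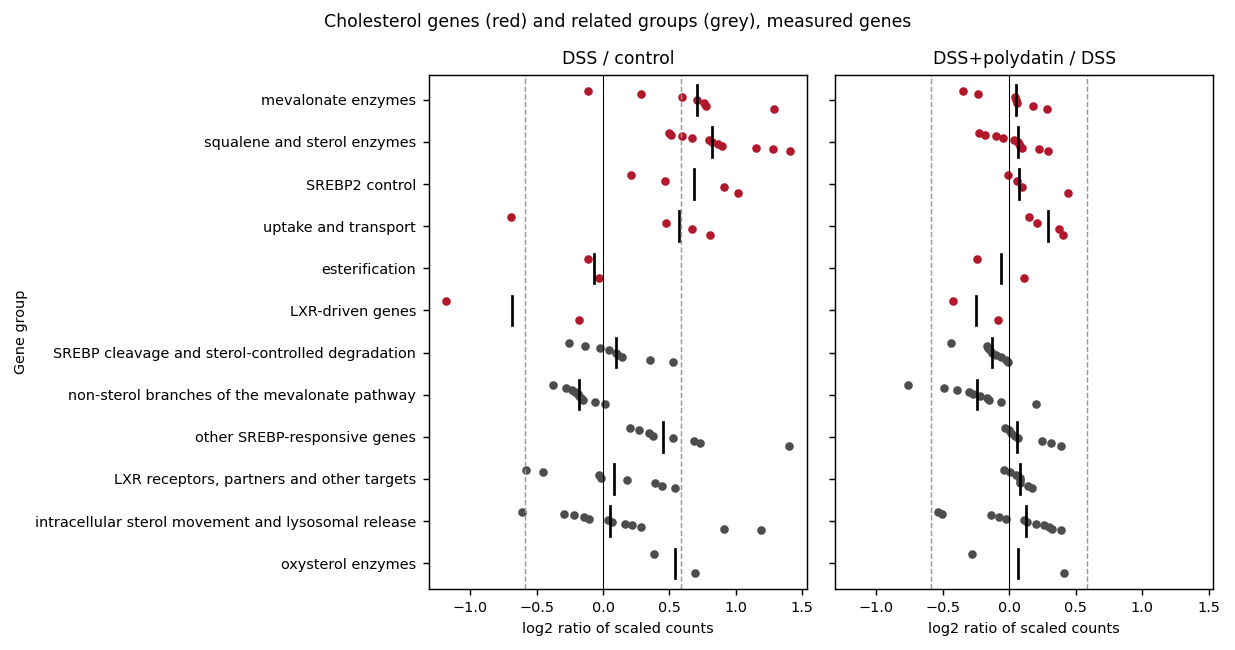
Log2 ratios of the measured genes of each member group (red) and related group (grey), 1 point per gene, with a black bar at the group median and dashed lines at 1.5-fold, for DSS over control (left) and DSS+polydatin over DSS (right). In the left panel the medians of the enzyme groups are 0.71 and 0.82, that of the other SREBP-responsive genes 0.45 and that of the non-sterol branches −0.18.

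The libraries held 18695613, 18825914 and 16667622 counts for control, DSS and DSS+polydatin, with 5.31%, 4.77% and 4.34% from mitochondrial genes. Of 10 intestinal epithelial markers 8 were measured, with summed levels of 7643, 9250 and 7612 CPM, CDX1 at 0 and KRT20 under 1 CPM in all libraries, and CDX2 at 147, 118 and 78.3 CPM. Summed markers were 49.3, 45.0 and 52.0 CPM for fibroblasts (6 genes, most of it COL1A1 at 39.7, 37.8 and 43.3 CPM, with LUM at 0.165, 1.13 and 1.55 CPM and PDGFRB at 7.60, 3.99 and 5.33 CPM), 3.97, 5.34 and 5.10 for immune cells (4 genes, PTPRC at 0), 24.9, 17.4 and 13.5 for endothelium (4 genes, KDR at 0, PECAM1 at 24.4, 16.0 and 9.52 CPM, VWF at 0.496, 1.19 and 3.90 CPM) and 0.496, 0.324 and 0.401 for adipocytes (3 genes). Histone genes tied to DNA replication, with mRNAs that mostly carry no poly(A) tail, moved in the same direction as the enzymes. Of 18 listed, 12 were measured and 11 were higher in DSS, where 9.45% of all measured genes were, and none was lower. Their sum was 91.0, 193 and 191 CPM. The part of the histone, mitochondrial, CDX2, PECAM1, VWF, LUM and PDGFRB differences in the results on the cholesterol genes was not tested.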

How the data were processed

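RNA of 3 Caco-2 samples (control, DSS, DSS+polydatin, 1 library each, grouped by the treatment label) was extracted with Trizol and made into libraries with a VAHTS Universal kit, per the labels' protocols. Reads were aligned with HISAT2 to GRCh38, per the submitters' processing notes. The sources used here leave out the strand setting, the annotation release, the program that counted reads and the version of HISAT2. The deposited table holds raw whole-number counts per Ensembl gene, which the authors did not normalize. Other treatment groups named in the design text were not analysed here.

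Symbols were matched for 60463 of 60664 identifiers. Positions, exons and lengths came from GENCODE 29, and promoters from RefSeq (GRCh38.p14). TMM scaling factors were taken from edgeR 4.0.16, run in R 4.3.3 (0.971 for control, 0.984 for DSS and 1.05 for DSS+polydatin), so that 1 CPM equalled 18.2, 18.5 and 17.4 counts. Ratios and exact intervals were computed in Python 3.11.15 with scipy 1.17.1, after checks on simulated counts. Where a library had 0 counts, 0.5 was added to both. With 1 library per group no p-value or standard error can be had. Figures used matplotlib 3.10.9.

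The members and gene lists were chosen with earlier results of these data known. All members are named. From each related list, genes past 1.5-fold in any comparison are named, otherwise the 2 with the highest summed scaled counts, and other names were chosen after their values were seen. A single marker gene is not reported here. Alternatives were library-total scaling, size factors from DESeq2 1.42.0, a CPM minimum of 10 or none at all, a looser and a stricter (2-fold) threshold, and removal of a trend on GC content and length (statsmodels 0.14.6).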

Additional observations from a re-analysis of the deposited data

How the results depend on the processing

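With no replicates, counting depth is the only error measured, and it limits ABCA1, NPC1L1, SOAT2 and CYP51A1 most. No called member changed direction under any alternative. With a CPM of at least 10, which leaves 27 members and drops ABCA1, NPC1L1 and SOAT2, the members lower than control numbered 0 in DSS and 0 in DSS+polydatin, and the member median for DSS+polydatin against control was 0.77. Of the 10084 genes in that setting 438 and 1315 were lower. At 2-fold, 5 of the 30 members were higher and 1 lower in DSS than in control, where 4.24% and 1.76% of all measured genes were. In DSS+polydatin 6 were higher than in control, where 8.53% of all measured genes were. At the looser threshold of 5/4, 2 members (INSIG1, NPC1) were higher and 1 (PMVK) lower in DSS+polydatin than in DSS, and 2 were lower than in control. Of all 14792 measured genes 1676 were higher and 1552 lower than in DSS, and 3597 lower than in control. All of these are larger shares than among the members. With the trend on GC content and length taken out, 3 were lower in DSS+polydatin than in control (ABCA1, PMVK at −0.61 and NPC1L1 at −0.61 on the log2 scale) and the member median was 0.77. Of all 14699 genes in that setting 1535 were lower, about the same share as among the members. The members higher in this comparison went from 16 to 19, though MVK (0.53) lost its call. Over all genes the number higher went from 2367 of 14792 to 2025 of 14699. In that setting MVK was no longer called for DSS against control (0.56), while HSD17B7 (0.61) and STARD4 (0.59) were, and the cause was not tested. DESeq2 size factors left 16 of the 18 members higher in DSS, IDI1 (0.58) and SC5D (0.57) falling just short. Library-total scaling kept all 18. Scaling and trend alternatives for the related lists were chosen after seeing the data. No paired analysis was possible because each group has 1 library.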
